A study of Mus musculus with 12 samples.

Results

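Sox10, Olig1, Olig2, Mbp, Mag, Mog and Cldn11 are 7 genes used as markers of oligodendrocytes, and they were followed in the mouse pineal gland, the source of night-time melatonin. They were taken as every probe set that the array annotation gives to these symbols, which made 16 of the 45101 probe sets of the series: 3 for Sox10, 8 for Mbp and 1 for each of the others. The study compared pineal glands of Crx-/- mice with those of control mice of strain 129sv, in the day at Zeitgeber time 6 (ZT6, counted in hours from lights on) and in the night at ZT20, and so asked which pineal transcripts depend on Crx, a homeobox transcription factor of photoreceptors and pinealocytes. The 4 groups were Crx-/- at ZT6, control at ZT6, Crx-/- at ZT20 and control at ZT20, each with 3 Affymetrix mouse 430_2 arrays that the labels call biological replicates. Mice of both genders, more than 2 months old, were held in 12 h light and 12 h dark, killed by CO2 and decapitation (under dim red light at ZT20), and 100 ng of gland RNA was amplified with a NuGEN Ovation kit. The labels describe the mutant as Crx-/- and do not give the allele, how many glands made up a sample, or whether Crx-/- mice and controls were littermates. Signals below are quantile normalized between arrays, and a gene was called where limma gave an adjusted p (Benjamini-Hochberg, over all genes tested) under 0.05.

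Oligodendrocytes wrap axons of the brain and spinal cord in myelin. Olig1 and Olig2 are basic helix-loop-helix factors and Sox10 an HMG-box factor; Olig2 sets up the lineage and Sox10 keeps it and drives its myelin genes. Mbp (myelin basic protein) compacts the myelin membrane, Mag and Mog are adhesion-type proteins of the myelin sheath, and Cldn11 is the claudin of its tight junctions. Mag and Mog are markers of myelinating cells, Mog of the central nervous system alone. Sox10 and Mbp are also made by Schwann cells, the glia of peripheral nerves, Sox10 by melanocytes too, and Cldn11 by cells of the arachnoid. The pineal gland receives sympathetic nerve fibres, whose glia are Schwann cells, and is covered by meninges.

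One array, the library labelled control ZT20 replicate 3, resembled Crx-/- glands, and results that rest on it are given with it and without it. Across genes it correlated with the Crx-/- ZT20 arrays at 0.970 to 0.989 and with both control ZT20 arrays at 0.915 to 0.925; the other replicate pairs lay at 0.979 to 0.992 and the other pairs between genotypes at 0.893 to 0.926. Crx signal did not check the labels, since it was 6025 to 8537 on the Crx-/- arrays and 6468 to 9894 on the control arrays, and whether its probe set lies outside the deleted part is not known here. The tissue label was checked with Tph1, the first enzyme of pineal serotonin synthesis, which was bright on all arrays. It reached 8272 to 8978 on the Crx-/- arrays, 8682 on control ZT20 replicate 3 and 11431 to 12915 on the other control arrays. By Tph1 too, control ZT20 replicate 3 lay within the Crx-/- range. Array backgrounds, taken as the highest of the 27 Bacillus control probe sets on each array, were 9.14 to 18.2; with 3 arrays in each group, the precision is set by that number.

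Only 3 of the 7 genes, Sox10, Mbp and Cldn11, passed the filter on dim signals, and all 3 were higher in Crx-/- glands. Sox10 reached the array median that the filter asks for on 6 of 6 Crx-/- arrays and 2 of 6 control arrays. It thus passed through the genotype in which it was high. The brightest probe set of Mbp and the probe set of Cldn11 reached the median on all 12. Over both times of day the change was 4.60-fold for Sox10, 2.67-fold for Mbp and 1.56-fold for Cldn11. Olig1, Olig2, Mag and Mog lay at or near array background on most arrays of both genotypes. The label oligodendrocyte is thus not borne out by these genes, and the set is named here by its leading genes, Sox10, Mbp and Cldn11. Mobp, a myelin gene outside the set, was above background on all 12 arrays. It gave 44.5 to 178 on the Crx-/- arrays and 16.9 to 43.2 on the control arrays. Of the 192 values of the 16 probe sets, 137 were above the background of their array. The share of all 12379 tested genes called higher over both times was 25.3%, so a call by itself does not set these 3 genes apart, and 18.1% were called lower.

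**Figure D1:**
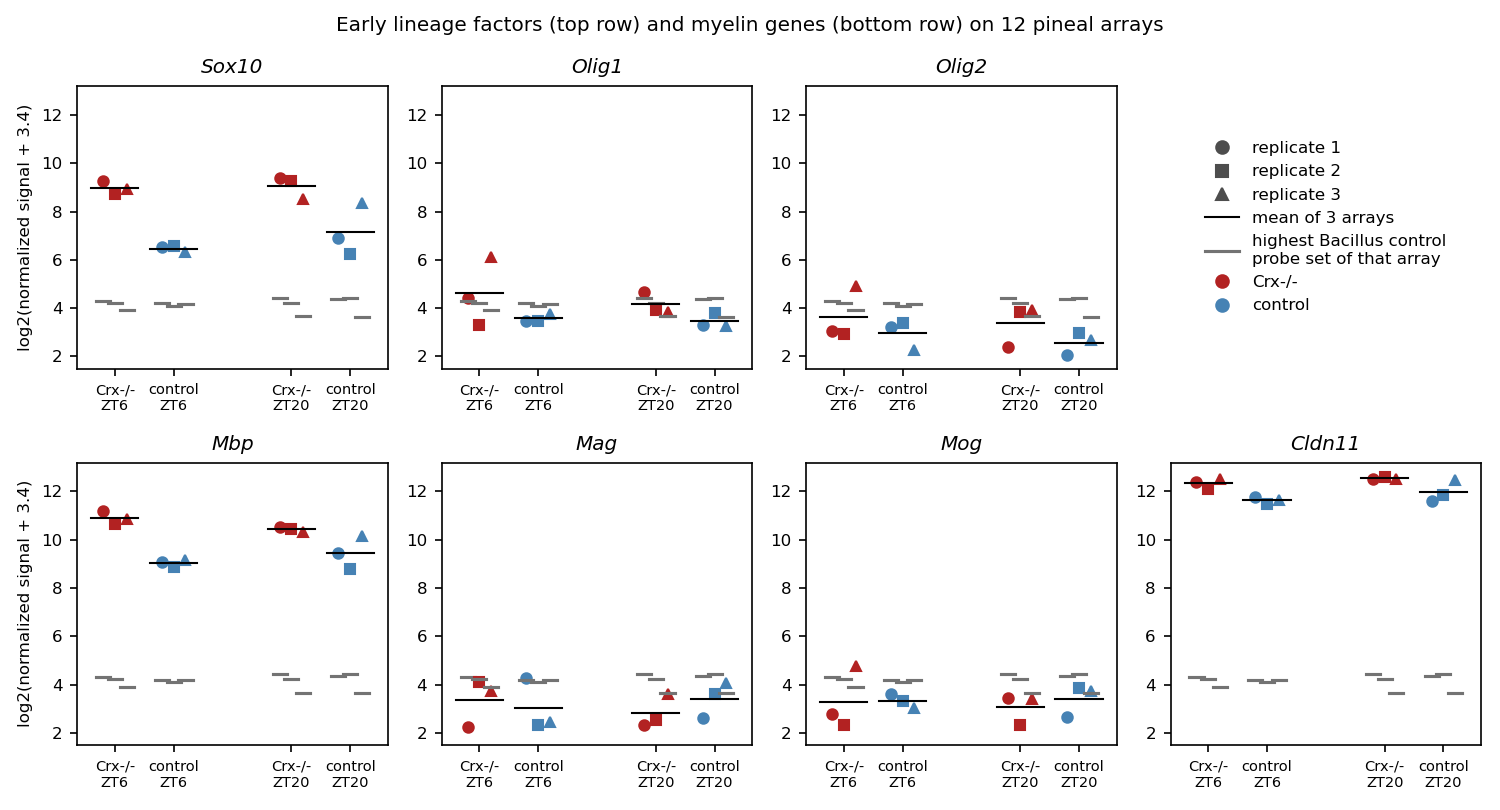
Log2 of normalized signal plus 3.4 (y axis) of each gene on each of the 12 arrays, for the brightest probe set of Sox10 and Mbp and the single probe set of the others. Black bars are means of 3 arrays and grey ticks the background of each array. Sox10, Mbp and Cldn11 stand well above background on every array, with the control ZT20 replicate 3 triangle nearest to the Crx-/- arrays, while Olig1, Olig2, Mag and Mog lie around it, apart from the Crx-/- ZT6 replicate 3 triangle of Olig1, Olig2 and Mog.

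Sox10, the early factor that was measured, had the largest change of the 3 when each gene was read on its brightest probe set. On its brightest probe set the normalized signal at ZT6 was 607, 425 and 481 in Crx-/- glands, against 89.0, 91.3 and 75.8 in control glands. At ZT20 it was 662, 618 and 368 in Crx-/- glands, against 115, 73.2 and 322 in control glands. Every Crx-/- array was higher than every control array, but the control value of 322, on the array that stood apart, came close to the lowest Crx-/- value of 368. The log2 change was 2.50 ± 0.41 (SE) at ZT6 (limma, adjusted p = 0.00140, 3 arrays against 3) and 1.90 ± 0.41 at ZT20 (adjusted p = 0.0266). The share of genes called higher was 18.9% at ZT6 and 6.87% at ZT20, and the share higher without overlap between the genotypes was 30.6% and 16.2%. Without control ZT20 replicate 3 the changes were 2.52 ± 0.24 and 2.51 ± 0.26, and the share called higher at ZT20 became 24.1%. The ZT20 call of Sox10 was lost in 5 of 23 alternative settings, over all of which the change ran from 1.44 to 2.52 and the adjusted p reached 0.16. In a bulk gland, more cells of a type and more RNA per cell cannot be told apart.

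The other Sox10 probe sets were dimmer and did not pass the filter. The probe set 1424985_a_at gave 97.2, 82.1 and 54.4 in Crx-/- glands at ZT6, against 18.4, 31.2 and 22.2 in control glands. At ZT20 it gave 76.2, 76.5 and 50.6 in Crx-/- glands, against 32.0, 13.7 and 55.0 in control glands. Its groups did not overlap at ZT6, and at ZT20 they overlapped through the control array of 55.0, again replicate 3. The probe set 1425369_a_at lay between 10.4 and 24.9 in Crx-/- glands and between 1.80 and 21.9 in control glands, and was above background on 5 of 12 arrays. In a fit of all probe sets without the filter, 1424985_a_at changed by 1.33 ± 0.29 (log2) over both times and 1425369_a_at by 0.94 ± 0.38. Both were below the 1.42 ± 0.18 of the brightest Mbp probe set in that fit.

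Mbp, which compacts the myelin membrane, was measured by 8 probe sets. On the brightest, 1433532_a_at, the signal at ZT6 was 2338, 1625 and 1871 in Crx-/- glands, against 540, 459 and 576 in control glands. At ZT20 it was 1455, 1400 and 1268 in Crx-/- glands, against 692, 436 and 1147 in control glands. The genotypes did not overlap at either time, and 30.6% of all tested genes at ZT6 and 16.2% at ZT20 were likewise higher without overlap. Control ZT20 replicate 3 was again the highest control array. The log2 change was 1.87 ± 0.27 at ZT6 (limma, adjusted p = 0.000708) and 0.96 ± 0.27 at ZT20 (adjusted p = 0.0425), and without that array it was 1.88 ± 0.17 and 1.32 ± 0.19. The ZT20 call of Mbp was lost in 15 of 24 alternative settings.

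The 6 brighter Mbp probe sets all passed the filter and all were called higher over both times. Their log2 changes ran from 0.80 ± 0.19 for 1425264_s_at to 1.94 ± 0.24 for 1454651_x_at, and of the 24273 probe sets kept, 19.3% were called higher. Among the 6, 1419646_a_at reached the array median on 6 of 6 Crx-/- arrays and 0 of 6 control arrays. It thus passed the filter through the genotype in which it was high. The 6 share 1 transcript pool and are not replicates of each other. Those ending in _x_at hold probes that can match other transcripts. At ZT6 all 6 were called higher, against 13.7% of the kept probe sets, and at ZT20 4 were, against 4.56%, with 1419646_a_at at 0.70 ± 0.30 and 1425264_s_at at 0.75 ± 0.26 not passing. The remaining probe sets, 1425263_a_at and 1451961_a_at, lay near background, between 10.02 and 26.3 in Crx-/- glands and between 8.22 and 26.5 in control glands.

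**Figure D2:**
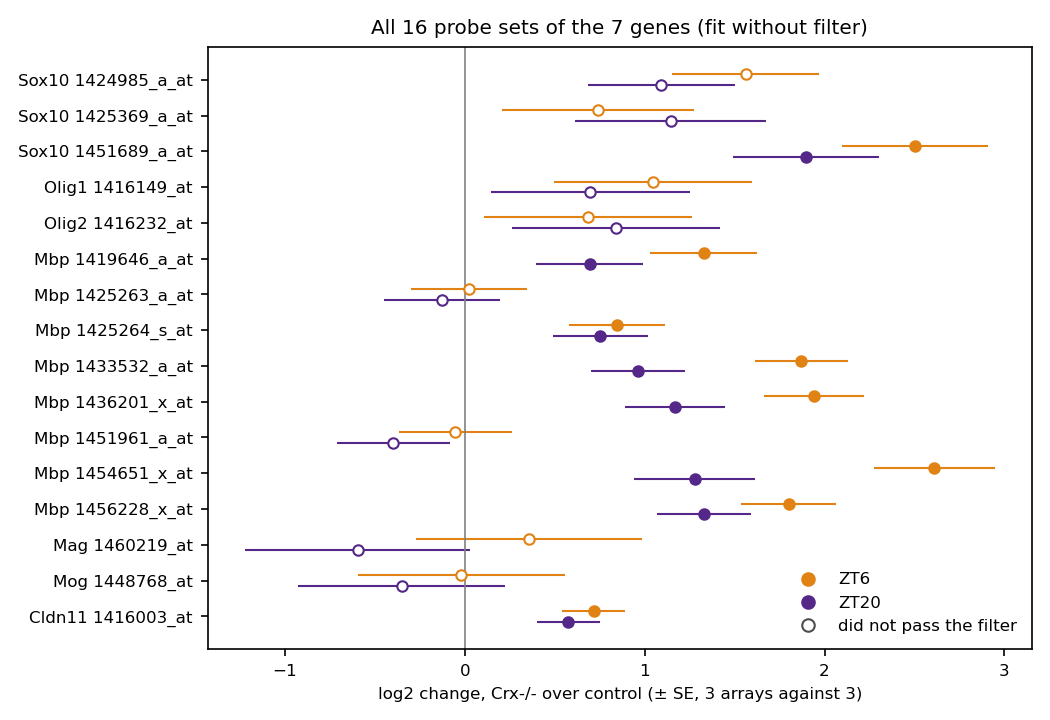
Log2 change of each of the 16 probe sets, Crx-/- over control, at ZT6 (orange) and ZT20 (purple), from a fit without the filter; bars are SE and open points did not pass the filter. The kept probe sets of Sox10, Mbp and Cldn11 lie right of 0 at both times, whereas Mag, Mog and the dim Mbp probe sets scatter around 0.

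Cldn11 was the brightest gene of the set and changed least among the 3. At ZT6 its signal was 5324, 4449 and 5907 in Crx-/- glands, against 3464, 2846 and 3197 in control glands. At ZT20 it was 5899, 6277 and 5848 in Crx-/- glands, against 3096, 3714 and 5699 in control glands. The groups did not overlap within either time, but control ZT20 replicate 3, at 5699, was above 2 of the 3 Crx-/- arrays of ZT6. The log2 change was 0.72 ± 0.18 at ZT6 (limma, adjusted p = 0.0104), and at ZT20 it was 0.57 ± 0.18 and did not pass (adjusted p = 0.0551). Without that array the ZT20 change was 0.83 ± 0.12 and passed (limma, adjusted p = 0.00011). Within ZT6, 30.6% of all genes were likewise higher without overlap between the genotypes, and within ZT20 16.2%.

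The Cldn11 promoter (RefSeq, GRCm38.p6) is shown because it was searched for the core letters bound by Crx and Otx factors, TAATCC. The sequence runs from 250 bases before to 50 bases after the start site, at chr3:31149670-31149969 on the plus strand, with the match in capitals:
Cldn11: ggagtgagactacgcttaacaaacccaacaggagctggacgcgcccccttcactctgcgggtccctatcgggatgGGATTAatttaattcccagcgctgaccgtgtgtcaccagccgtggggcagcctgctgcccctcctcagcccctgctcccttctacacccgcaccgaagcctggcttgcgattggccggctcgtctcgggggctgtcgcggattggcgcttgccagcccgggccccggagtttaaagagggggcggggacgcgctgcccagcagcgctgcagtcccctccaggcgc
It holds GGATTA, the reverse complement of TAATCC, at position -175 from the start site, and such a match on either strand is present in 7.06% of 32851 promoters of that length. A match is a description of letters, not of binding. None of the Sox letters ACAAAG and ACAATG, the E-boxes CAGATG and CATATG or the Myrf-type letters CTGGCAC and CTGGTAC is in this window on either strand.

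Olig1 and Olig2, the early factors of the lineage, were not above background in control glands. Olig1 was 18.1, 6.43 and 67.1 in Crx-/- glands at ZT6, against 7.82, 7.67 and 10.2 in control glands. At ZT20 it was 21.8, 12.0 and 11.1 in Crx-/- glands, against 6.45, 10.7 and 6.07 in control glands. It was above background on 4 of 6 Crx-/- arrays and on 0 of 6 control arrays. Its groups overlapped at ZT6 and did not overlap at ZT20, where 16.2% of all tested genes were likewise higher without overlap. In a fit without the filter the log2 change of Olig1 over both times was 0.87 ± 0.39 (limma, adjusted p = 0.114), and without Crx-/- ZT6 replicate 3 it was 0.49 ± 0.28 (adjusted p = 0.222).

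Olig2 was 4.88, 4.28 and 27.2 in Crx-/- glands at ZT6, against 5.91, 7.18 and 1.35 in control glands. At ZT20 it was 1.85, 11.1 and 11.9 in Crx-/- glands, against 0.725, 4.38 and 2.95 in control glands. It passed background on 2 of 6 Crx-/- arrays and on 0 of 6 control arrays. Its log2 change in the fit without the filter was 0.76 ± 0.42 (limma, adjusted p = 0.191), and 0.43 ± 0.36 without Crx-/- ZT6 replicate 3 (adjusted p = 0.407).

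Mag and Mog, which mark the finished myelin sheath, were near background in both genotypes. Mag was 1.37, 14.0 and 9.92 in Crx-/- glands at ZT6, against 15.9, 1.64 and 2.01 in control glands. At ZT20 Mag was 1.61, 2.45 and 8.81 in Crx-/- glands, against 2.69, 8.73 and 13.3 in control glands, and over all arrays it passed background on 0 of 6 Crx-/- and 2 of 6 control arrays. Mog was 3.53, 1.61 and 24.1 in Crx-/- glands at ZT6, against 8.73, 6.61 and 4.78 in control glands. At ZT20 Mog was 7.37, 1.69 and 7.30 in Crx-/- glands, against 2.95, 11.1 and 9.84 in control glands, and it passed background on 1 Crx-/- and 1 control array. In the fit without the filter the log2 changes were -0.12 ± 0.45 for Mag and -0.18 ± 0.41 for Mog (limma, adjusted p = 0.871 and 0.774), and a change was not detectable at these signals.

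For the genes near background, the promoters of Olig2 (chr16:91225300-91225599, plus strand) and Mag (the first of 3 starts listed, chr7:30914814-30915113, minus strand, written in the direction of the gene) are shown to set beside Cldn11, with motif matches in capitals:
Olig2: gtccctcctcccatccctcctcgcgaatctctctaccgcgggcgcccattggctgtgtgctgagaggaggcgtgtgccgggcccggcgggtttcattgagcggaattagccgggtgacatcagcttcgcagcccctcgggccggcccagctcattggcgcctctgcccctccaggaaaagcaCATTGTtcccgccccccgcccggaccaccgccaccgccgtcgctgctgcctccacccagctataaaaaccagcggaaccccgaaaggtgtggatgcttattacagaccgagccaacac
Mag: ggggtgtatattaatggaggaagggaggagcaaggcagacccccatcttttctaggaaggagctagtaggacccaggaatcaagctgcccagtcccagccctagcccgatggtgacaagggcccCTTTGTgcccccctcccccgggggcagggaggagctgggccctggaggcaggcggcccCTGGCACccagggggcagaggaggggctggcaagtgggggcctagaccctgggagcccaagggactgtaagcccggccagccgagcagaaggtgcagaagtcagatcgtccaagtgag
Olig2 holds CATTGT, the reverse complement of the Sox letters ACAATG (12.6% of promoters), and Mag holds CTTTGT, the reverse complement of ACAAAG (18.7% of promoters), and the Myrf-type CTGGCAC (5.01% of promoters). Neither holds TAATCC on either strand, and none of these matches says that a factor binds there. The Mog promoter was searched as well and held the reverse complement of CTGGTAC (2.24% of promoters) and none of the other letters.

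The highest signals of Olig1, Olig2 and Mog lay on the same array. Crx-/- ZT6 replicate 3 was the highest of all 12 arrays for 3 of the 7 genes, against 7.54% of 18193 genes on the whole array. The value there was 3.08 times the highest other array for Olig1, 2.28 times for Olig2 and 2.18 times for Mog. Further lineage genes seen, after their values were known, to be high on it were Gpr17, a receptor of committed progenitors, with 33.2 against at most 17.6 elsewhere, and Tppp, a tubulin-binding protein of oligodendrocytes and neurons, with 610 against at most 352. Mag, at 9.92, was below the background of that array. Of 63 oligodendrocyte genes, the 7 together with the progenitor and myelin lists below, 10 were highest on Crx-/- ZT6 replicate 3. Crx-/- ZT6 replicate 1 was the highest array for 11 of them and Crx-/- ZT20 replicate 2 for 10, so the lists did not single out replicate 3.

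Some neuron markers were also highest on Crx-/- ZT6 replicate 3. Camk2a, the kinase of forebrain excitatory neurons, gave 2578 there against at most 229 on the other 11 arrays, the neuronal splicing factor Rbfox3 716 against at most 105, and Gad1, the GABA-synthesizing enzyme, 522 against at most 147. Of 14 listed neuron markers 6 and of 10 listed astrocyte markers 7 had their highest value on it. The other 8 neuron markers did not, among them Nefh with 379 against 3504 on the highest other array and Nefm with 151 against 254. The summed signal of the neuron list was 21232 to 26219 in Crx-/- ZT6 glands and 24350 to 25180 in control ZT6 glands. On Crx-/- ZT6 replicate 3 it was 26219, below control ZT20 replicates 1 and 2 with 26816 and 26915. Most of that sum came from Snap25 (13083) and Slc17a6 (6972), which reached 13929 and 10156 on other arrays. The neuron sum thus says little about Camk2a, Rbfox3 and Gad1. The astrocyte list had its highest sum of the 12 arrays on Crx-/- ZT6 replicate 3, at 25297. The next highest, 23118, was on control ZT20 replicate 3. On Crx-/- ZT6 replicate 3 the brightest probe sets of Sox10 and Mbp lay between the other Crx-/- ZT6 arrays. Cldn11, at 5907, was above their 5324 and 4449 and below its Crx-/- ZT20 maximum of 6277. The Mbp probe set 1456228_x_at had its highest value of all 12 arrays there, at 2102 against 1533 on the next array. The remaining kept Mbp probe sets lay between the other Crx-/- ZT6 arrays. The part of these neuron and astrocyte signals in the Olig1, Olig2, Mog, Mbp and Cldn11 values was not tested.

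**Figure D3:**
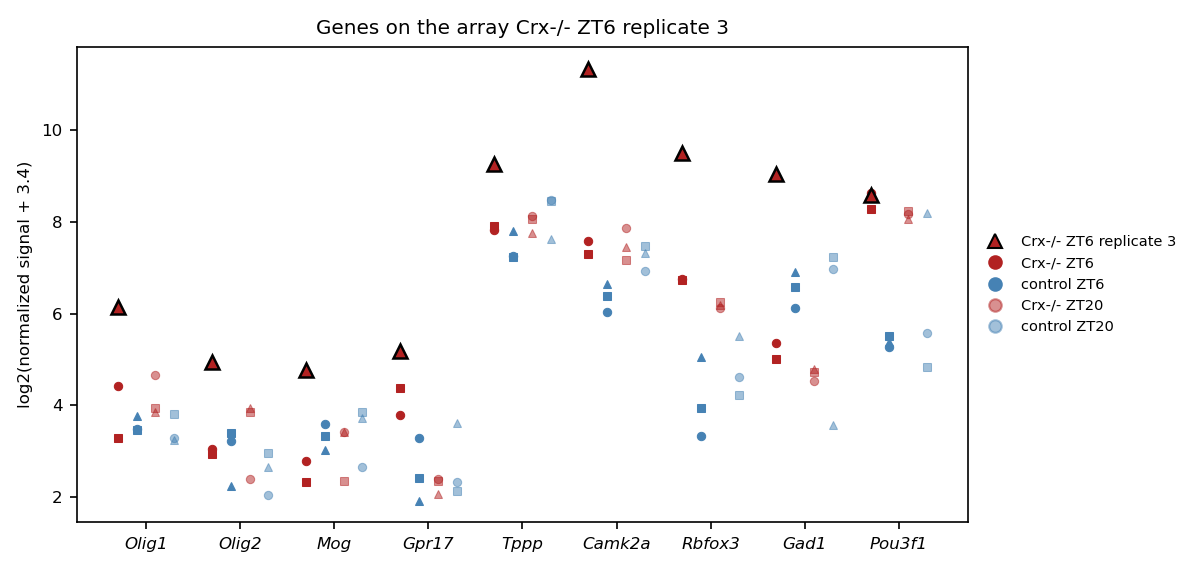
Log2 of normalized signal plus 3.4 (y axis) of 9 genes on the 12 arrays, by group; the array Crx-/- ZT6 replicate 3 is outlined in black. It is the highest array for Olig1, Olig2, Mog, Gpr17, Tppp, Camk2a, Rbfox3 and Gad1, whereas for the Schwann cell factor Pou3f1 it lies at 377, among the Crx-/- arrays.

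Early factors were then set against the myelin genes on each array. With Olig1, Olig2, Mag and Mog near background, this came down to the log2 signal of Sox10 minus the mean of Mbp and Cldn11, of which only differences between arrays carry meaning. At ZT6 it was -2.53, -2.65 and -2.78 in Crx-/- glands, against -3.89, -3.60 and -4.10 in control glands. At ZT20 it was -2.14, -2.26 and -2.87 in Crx-/- glands, against -3.63, -4.06 and -2.98 in control glands. On these probe sets Sox10 thus stood higher relative to the myelin genes on every Crx-/- array than on any control array, with -2.87 and -2.98 the nearest values across the genotypes. This restates the larger change of that Sox10 probe set, which passed the filter through the Crx-/- arrays. How many other genes separate in this way from Mbp and Cldn11 was not determined. The group means were -2.66 ± 0.12 in Crx-/- and -3.87 ± 0.25 in control glands at ZT6, and -2.42 ± 0.40 in Crx-/- and -3.55 ± 0.55 in control glands at ZT20 (SD, n = 3 each). Whether the change of Sox10 differs from that of Mbp or Cldn11 was not tested.

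**Figure D4:**
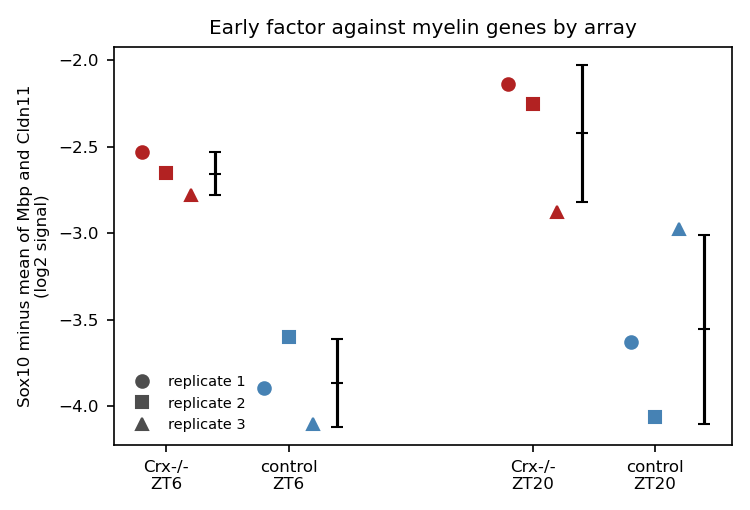
Log2 signal of Sox10 minus the mean of Mbp and Cldn11 (y axis) on each array, by group, with the mean and SD of 3 arrays beside it. All Crx-/- arrays lie above all control arrays, and control ZT20 replicate 3, at -2.98, lies next to Crx-/- ZT20 replicate 3, at -2.87.

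By time of day 0 of the 3 tested genes were called, in either genotype. From ZT6 to ZT20 the log2 change of Sox10 was 0.09 ± 0.41 in Crx-/- glands and 0.70 ± 0.41 in control glands. That of Mbp was -0.49 ± 0.27 in Crx-/- glands and 0.42 ± 0.27 in control glands, and that of Cldn11 was 0.21 ± 0.18 in Crx-/- glands and 0.35 ± 0.18 in control glands. The share of genes called for time was 1.57% in Crx-/- glands and 16.2% in control glands, and none of the 6 tests had an unadjusted p under 0.05. Without control ZT20 replicate 3 the control changes were 0.11 for Sox10, 0.07 for Mbp and 0.10 for Cldn11.

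The genotype by time interaction was not called for any of the 3 either, against 0.234% of all genes. It was largest for Mbp, at -0.91 ± 0.38 on the log2 scale, the negative sign meaning a smaller difference between genotypes at ZT20 than at ZT6 (unadjusted p = 0.0330, limma adjusted p = 0.318), and it was -0.56 ± 0.26 without control ZT20 replicate 3 (adjusted p = 0.221). Sox10 had -0.61 ± 0.59 and Cldn11 -0.14 ± 0.25, and without that array -0.02 ± 0.35 and 0.11 ± 0.16.

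Further genes of oligodendrocyte progenitors and lineage regulation were mostly higher in Crx-/- glands. Of 25 listed genes 17 were tested over both times, and 10 rose and 1 fell, against 25.3% and 18.1% of all genes, with a median log2 change of 0.43 against 0.04 for all genes. The rises were led by Tnr, the matrix protein tenascin-R (1.88 ± 0.40), Vcan, the proteoglycan versican (1.45 ± 0.26), and the Sox-family factor Sox5 (1.00 ± 0.20). Nfasc, an adhesion molecule of axon nodes (0.83 ± 0.21), the gliogenic factor Sox9 (0.73 ± 0.23), the Wnt effector Tcf7l2 (0.71 ± 0.14), Pdgfra, the growth factor receptor of progenitors and of fibroblasts (0.67 ± 0.09), and the receptor phosphatase Ptprz1 (0.54 ± 0.14) followed. Lhfpl3, a membrane protein of progenitors, fell by 1.21 (SE 0.26; limma, adjusted p = 0.00359). Tnr passed the filter through the arrays on which it was high. It gave 106 to 199 on the Crx-/- arrays, 179 on control ZT20 replicate 3 and 15.9 to 45.5 on the other control arrays. Lhfpl3 likewise passed through the control ZT6 arrays, with 130 to 190 there and at most 62.8 elsewhere. Without control ZT20 replicate 3, 10 of the listed genes rose and 3 fell, against 31.2% and 24.7% of all genes. Several of these genes are also used by astrocytes or fibroblasts, and Nkx2-2 and Gpr17, which are more restricted to the lineage, were above background on 2 of 12 arrays each.

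Genes of myelin and mature oligodendrocytes were called in both directions, at shares near those of all genes. Of 38 listed genes 19 were tested, and 6 rose and 5 fell, against 25.3% and 18.1% of all genes, with a median of 0.33. Aspa, the enzyme that splits N-acetylaspartate, rose by 1.25 ± 0.16, the lysophosphatidic acid receptor Lpar1 by 1.05 ± 0.21 and the myelin proteolipid Mal by 0.98 ± 0.19. The actin-severing gelsolin Gsn rose by 0.73 ± 0.15, the lipid carrier Apod by 0.55 ± 0.16 and the myelin phosphodiesterase Cnp by 0.43 ± 0.07. The tetraspanin Tspan2 (-0.63 ± 0.23), Plekhb1 (-0.45 ± 0.06), the deacetylase Sirt2 (-0.43 ± 0.11), the small heat shock protein Cryab (-0.22 ± 0.05) and Qdpr, which recycles tetrahydrobiopterin (-0.19 ± 0.06), fell. The largest adjusted p among the 11 was 0.0404, for Tspan2 (limma). Without control ZT20 replicate 3, 9 rose and 6 fell, and 31.2% of all genes were called higher and 24.7% lower.

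Several genes of the myelin list were dim. Gjb1 and Hapln2 were above background on 0 of 12 arrays, and Opalin lay between 3.08 and 31.1. Mobp, a myelin protein with signal above background on all 12 arrays, did not pass the filter. It gave 178, 44.5 and 147 in Crx-/- glands at ZT6, against 29.9, 18.1 and 16.9 in control glands. At ZT20 Mobp gave 80.9, 69.8 and 63.2 in Crx-/- glands, against 29.4, 43.2 and 26.8 in control glands. Every Crx-/- array was higher than every control array. Of the 12379 tested genes, 30.6% at ZT6 and 16.2% at ZT20 were likewise higher without overlap, and the share over both times together was not determined. In the fit without the filter the log2 change of Mobp was 1.61 (limma, adjusted p = 0.00224), and 18% of the 18193 genes in that fit were called higher.

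With all 12 arrays 4 genes of these lists were called by time of day in control glands and 1 in Crx-/- glands. In control glands Lpar1 (1.12), Plekhh1 (0.57) and the carbonic anhydrase Car2 (0.29) were higher at ZT20 than at ZT6 and Lhfpl3 was lower (-1.62), with adjusted p from 0.0130 to 0.0348 (limma). In Crx-/- glands Plekhb1 was higher at ZT20 by 0.57 (adjusted p = 0.00279) and no other gene of either list was called. The share of all genes called higher was 0.695% in Crx-/- glands and 7.11% in control glands. More were called without control ZT20 replicate 3. In Crx-/- glands 4 myelin genes were then higher at ZT20 and 1 lower, against 6.14% of all genes in either direction, and in control glands 3 progenitor genes were higher and 2 lower and 6 myelin genes higher, against 25.1%. The largest of these changes was that of Evi2a, a membrane protein gene of the myelin list, singled out after its values were seen. At ZT6 Evi2a gave 290, 278 and 219 in Crx-/- glands, against 182, 190.4 and 277 in control glands. At ZT20 it gave 118, 160.1 and 128 in Crx-/- glands, against 2564, 3162 and 120 in control glands, where the value of 120 belonged to replicate 3. Without that array its change from ZT6 to ZT20 was -0.94 ± 0.19 in Crx-/- glands and 3.74 ± 0.21 in control glands, and the interaction was -4.68 ± 0.28 (limma, adjusted p = 3.26e-06). With all 12 arrays the interaction was -3.15 ± 1.25 and did not pass (adjusted p = 0.295).

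Schwann cell markers moved with Sox10 and Mbp. Of 18 listed genes 13 were tested over both times and 12 rose, against 25.3% of all genes, all but Egr2 (0.14 ± 0.27), the factor of the myelinating Schwann cell, with a median log2 change of 0.94. The POU factor Pou3f1, of promyelinating Schwann cells, rose by 2.53 ± 0.43, the artemin receptor subunit Gfra3 by 1.55 ± 0.25, the cadherin Cdh19 by 1.33 ± 0.22 and the neuregulin receptor Erbb3 by 1.33 ± 0.25 (limma, adjusted p up to 0.00156). Pou3f1 gave 392, 305 and 377 in Crx-/- glands at ZT6, against 35.0, 42.0 and 38.0 in control glands. At ZT20 Pou3f1 gave 285, 300 and 264 in Crx-/- glands, against 44.3, 25.1 and 290 in control glands, where the value of 290 belonged to replicate 3. Pou3f1 thus passed the filter through the arrays on which it was high. The summed signal of the 16 listed genes on the array was 12918 to 16259 in Crx-/- and 7360 to 7617 in control glands at ZT6, and 14333 to 16569 in Crx-/- and 7953 to 13204 in control glands at ZT20. None of the listed genes was at 0, though Pmp2 was above background on 6 of 12 arrays. The part of Schwann cells in the Sox10 and Mbp values was not tested.

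Markers of melanocytes, which also use Sox10, were dim or moved in both directions. Tyr, their tyrosinase, was above background on 0 of 12 arrays and Mlana on 1. Of the 5 melanocyte genes tested, Kit (0.61 ± 0.15), Dct (0.38 ± 0.10) and Oca2 (0.37 ± 0.12) rose and Tyrp1 (-0.92 ± 0.33) and Mitf (-0.14 ± 0.04) fell. The summed signal of the 9 listed genes was 10120 to 10344 in Crx-/- and 10126 to 11104 in control glands at ZT6, and 12528 to 12603 in Crx-/- and 12717 to 13808 in control glands at ZT20.

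Meningeal and mural markers, which can share Cldn11, rose in 8 of 11 tested genes (25.3% of all genes) and fell in 0, with the collagens Col3a1 (1.05 ± 0.15) and the matrix proteoglycan Dcn (0.78 ± 0.13) leading. Their summed signal was 50025 to 51974 in Crx-/- and 30427 to 30686 in control glands at ZT6, and 48174 to 50285 in Crx-/- and 36871 to 51105 in control glands at ZT20, with 51105 on control ZT20 replicate 3. Without that array 11 of the 11 genes rose, against 31.2% of all genes. The part of meningeal tissue in the Cldn11 values was not tested.

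Markers of several other cell types were also higher, beside the same 25.3% of all genes. Astrocyte genes rose in 8 of 10, led by the glutamate transporter Slc1a3 (1.78 ± 0.35) and the gap junction gene Gjb6 (1.27 ± 0.24), endothelial genes in 5 of 9, led by Kdr (0.90 ± 0.23) and Slco1a4 (0.58 ± 0.10), and choroid plexus and ependymal genes in 3 of 7, led by Kcnj13 (0.54 ± 0.12) and Kl (0.42 ± 0.14), with 0 falls in each. Without control ZT20 replicate 3, 9 astrocyte genes rose and 1 fell. In that fit 7 endothelial and 5 choroid plexus and ependymal genes rose, and 31.2% of all genes were called higher. Without Crx-/- ZT6 replicate 3, 3 endothelial genes rose. Of 8 microglial genes 4 rose and 1 fell, with Tmem119 at 0.92 ± 0.13, P2ry12 at 0.68 ± 0.16 and Cd68 at -0.83 ± 0.17. Of 10 neuron genes 5 rose and 2 fell, with Nefl at 3.97 ± 0.62, Calb2 at 2.87 ± 0.46, Nefh at -2.15 ± 0.52 and Slc17a6 at -0.25 ± 0.07. Of 11 pinealocyte genes 2 rose and 5 fell, with Gch1 at 0.62 ± 0.22, Neurod1 at 0.16 ± 0.04, Gngt1 at -1.70 ± 0.38 and Aanat at -1.53 ± 0.30; without Crx-/- ZT6 replicate 3, 1 pinealocyte gene rose.

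**Figure D5:**
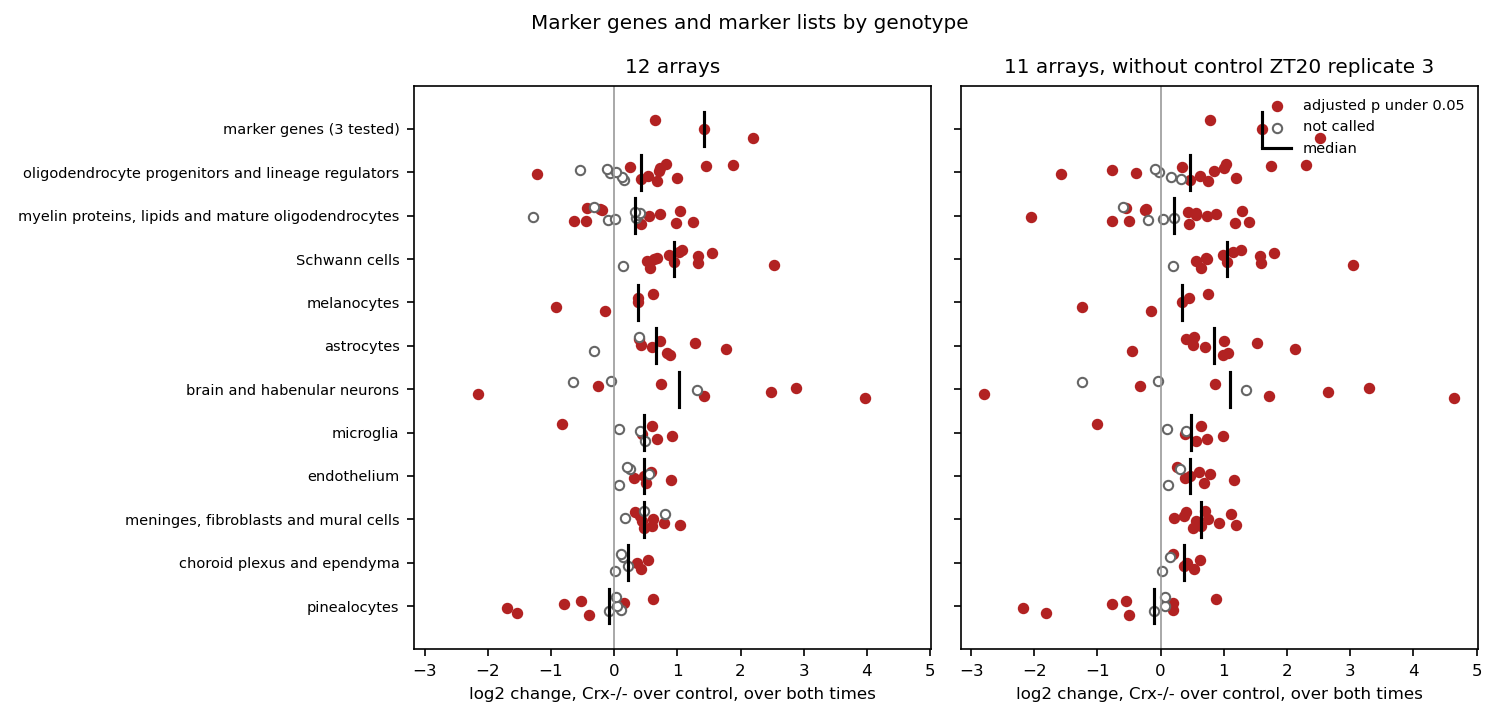
Log2 change over both times, Crx-/- over control, of each tested gene of the marker genes (Sox10, Mbp, Cldn11) and of the marker lists, with all 12 arrays (left) and without control ZT20 replicate 3 (right). Filled points were called, open points were not, and bars are list medians, which are highest among the lists of glia for Schwann cells (0.94 with 12 arrays).

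The 6 genes with profiles nearest to the mean of Sox10, Mbp and Cldn11 over the 12 arrays were Eml1, Efhd1, Col6a3, Synpo2, Aspa and Itih5. Their centred log2 values differed from that mean by 0.149 to 0.158 per array, against a median of 0.758 over 12376 genes, and the 3 genes themselves differed from it by 0.164 for Mbp, 0.388 for Cldn11 and 0.407 for Sox10. Without control ZT20 replicate 3 the nearest were Col6a3, Dlgap3, Adgrl2, Sfrp5, Synpo2 and Efhd1. All these profiles come from the same arrays and share their normalization.

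Measures of RNA quality did not overlap between the genotypes at ZT6. The ratio of 5′ to 3′ actin probe sets was 0.169 to 0.219 on the Crx-/- arrays and 0.248 to 0.283 on the control arrays, and that of Gapdh was 0.459 to 0.548 on the Crx-/- arrays and 0.590 to 0.636 on the control arrays. The highest ratios of all 12 arrays, 0.337 and 0.691, were those of control ZT20 replicate 3. Their part in the results was not tested. In the authors' deposited table for both times together, Mbp was listed at a log2 fold change of 1.65, Sox10 at 1.54 and Cldn11 at 1.04, all higher in Crx-/- glands. Mbp, not Sox10, thus had the largest change of these genes there.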

How the data were processed

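RNA of 12 pineal gland samples was hybridized to Affymetrix mouse 430_2 arrays, and groups were taken from the titles. Per the submitters' processing notes GCOS made the deposited array values, 1 signal intensity for every probe set. The authors also deposited gene lists, made with ChipInspector 2.1 per the series' design text, with log2 fold changes and a signed linear fold change (a score, not used here). The 2% trimmed means of the deposited signals were 382 to 698. Signals were quantile normalized, and log2(signal + 3.4, the 10th percentile) was used. Of 45101 probe sets 64 controls were left out, and those with at least 3 arrays at or above the array's 50th percentile were kept (24273). A probe set could thus pass through 1 group alone. Symbols came from the platform annotation: 34958 probe sets had 1, 932 several and 9211 none, and only those with 1 were used. The brightest kept probe set of each gene gave 12379 genes. The 4 group means were fitted with limma 3.58.1 (R 4.3.3, trend), two-sided, with Benjamini-Hochberg adjustment. The fit was also run on simulated data, whose spread was taken without control ZT20 replicate 3. That run therefore does not cover the wider spread that this array brings to the fit reported. P-values measure the spread between the samples, which the labels call biological replicates.

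The genes and lists were chosen with earlier results of these data known. Named were all 7 genes, up to 8 called genes each way of the progenitor and myelin lists, by size of change, up to 4 of the Schwann cell and melanocyte lists with Tyr and Mlana, and up to 2 of other lists; further genes of that rule are not reported here. Mobp, Gpr17, Tppp, Camk2a, Gad1, Nkx2-2, Opalin, Gjb1, Hapln2, Pmp2, Egr2, Evi2a, Nefh and Nefm were named after their values were seen. Promoters came from RefSeq (4 of 7 genes matched; Sox10, Olig1 and Mbp did not).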

Additional observations from a re-analysis of the deposited data

Results flagged for a closer look

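Of the 8 probe sets of the 7 genes that did not pass the filter, 6 had a signal on some Crx-/- array above every control array and above the highest background of any array, 18.2. Olig1 reached 67.1, Olig2 27.2 and Mog 24.1, all on Crx-/- ZT6 replicate 3, against at most 10.7, 7.18 and 11.1 on the control arrays. Sox10 probe set 1424985_a_at reached 97.2 and 1425369_a_at 24.9 on Crx-/- ZT6 replicate 1, against at most 55.0 and 21.9. Mbp probe set 1425263_a_at reached 25.0 on Crx-/- ZT6 replicate 2, against at most 23.5. The highest values of Mag, 15.9, and of Mbp probe set 1451961_a_at, 26.5, lay on control arrays. This rule looked only for signals higher in Crx-/- glands, and its share over all probe sets was not determined. The count of 6 therefore does not set these probe sets apart. Groups of 3 arrays are too small for the outlier test used here.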

How the results depend on the processing

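Over both times and at ZT6 the calls of Sox10, Mbp and Cldn11 held under every single alternative that gave a value, and the 3 genes called stayed 3 with any 1 array left out; under the stricter filter Sox10 was not tested. With no filter and Crx-/- ZT6 replicate 3 left out together, Cldn11 at ZT6 did not pass (0.63, adjusted p = 0.0535). Over both times the log2 change was 1.97 to 2.54 for Sox10, 1.24 to 1.62 for Mbp and 0.54 to 0.77 for Cldn11. At ZT20 the 2 genes called became 1 with the deposited signals, without the filter or without the trend in the prior variance, 0 with only the groups compared, and 0 to 3 with 1 array left out. There Mbp lost its call in 15 of 24 alternatives, Sox10 in 5 of 23 (without control ZT20 replicates 1 or 2, without Crx-/- ZT20 replicates 1 or 2, and with only the groups compared) and Cldn11 gained one in 3. By time in control glands, 0 to 1 genes were called with 1 array left out: Mbp without control ZT20 replicate 2 (adjusted p = 0.0372) and Cldn11 without control ZT20 replicate 1 (adjusted p = 0.0465). Time in Crx-/- glands, the interaction and falls stayed at 0. Progenitor genes called lower, 1, were 0 under the stricter filter, 2 without both arrays that stood apart (control ZT20 replicate 3 and Crx-/- ZT6 replicate 3, chosen after seeing the data) and 1 to 3 with 1 array left out, and those called higher 8 to 10. Myelin genes called higher, 6, were 10 without the filter and 6 to 9 with 1 array left out, and those called lower, 5, were 3 with the deposited signals and 4 to 6. Schwann cell genes called higher, 12, were 4 under the stricter filter, where fewer genes were tested, and 12 with any 1 array left out. With the mean of kept probe sets, Sox10 minus the myelin genes was -1.89 in Crx-/- and -2.99 in control glands at ZT20 and -2.03 and -3.31 at ZT6. Other causes were not tested. Replicate numbers did not pair the samples: deviations of same-numbered arrays correlated at -0.257 to 0.208 and others at -0.260 to 0.230. With the replicate number as a block all 3 genes were still called over both times, and the genes called there numbered 5352 against 5377, and 1279 against 1444 at ZT20. Over all alternatives these counts ran from 2738 to 9216 over both times, 1272 to 6307 (3956 in the fit reported) at ZT6, 0 to 5538 at ZT20, 535 to 3271 (2000) for time in control, 60 to 793 (194) for time in Crx-/- and 0 to 927 (29) for the interaction. Signals near background limit Olig1, Olig2, Mag and Mog.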
